A study of Mus musculus with 8 samples.

Results

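Prostaglandins, thromboxane and leukotrienes are lipid mediators made from arachidonic acid, and the enzymes that make them were followed here in mouse macrophages. The genes were Ptgs1, Ptgs2, Ptges, Tbxas1, Alox5, Alox5ap, Alox15, Ltc4s, Lta4h and Pla2g7. Every array probe whose gene symbol was 1 of these 10 names was taken, which gave 15 probes for 9 of the 10 genes, out of 25697 probes and 18138 gene symbols on the array. Lta4h, which makes leukotriene B4, had no probe under its own symbol, and 2 probes of another symbol whose annotation names it were not used. Of the 15 probes, 13 passed the detection filter and were tested, at least 1 for each of the 9 genes.

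A phospholipase frees arachidonic acid from membranes, and the cyclooxygenases encoded by Ptgs1 and Ptgs2 turn it into a common prostaglandin precursor that Ptges converts to prostaglandin E2 and Tbxas1 to thromboxane A2. In the leukotriene branch, the lipoxygenase encoded by Alox5 works with the membrane protein encoded by Alox5ap, and Ltc4s adds glutathione to give the cysteinyl leukotrienes. Alox15 encodes a further lipoxygenase, and Pla2g7 a secreted phospholipase that inactivates platelet-activating factor. Macrophages are a known source of all these mediators, and Ptgs2 is the classical inducible gene of the pathway.

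The cells were bone marrow-derived macrophages of 8-week-old female mice, grown for 7 days with GM-CSF at 10 ng/ml. Wild type mice were C57bl/6J, and the authors' methods list the iNOS deficient mice as a separate strain. Strain and genotype thus go together in these groups and cannot be told apart. The 8 arrays formed 4 groups of 2, which were unstimulated wild type (WT CON), stimulated wild type (WT M1), unstimulated iNOS deficient (iNOSKO CON) and stimulated iNOS deficient cells (iNOSKO M1). M1 cells had received LPS at 200 ng/ml plus IFN-γ at 10 ng/ml for 6 h, which polarizes macrophages towards the inflammatory M1 state. The study asked how loss of iNOS, the inducible nitric oxide synthase encoded by Nos2, alters M1 macrophages, and its iNOS deficient strain carries a targeted Nos2 allele in every cell. The labels do not say whether the 2 arrays of a group come from separate mice or cultures, so that p-values measure the spread between arrays, which may be technical.

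RNA was measured on an Illumina array that the series text names MouseRef-8 v2.0 and the authors' methods MouseWG-8 v2.0. Each value below is a scaled intensity, the deposited intensity of a probe multiplied by 1 factor per array, in arbitrary units. A probe counted as detected at a detection p-value under 0.05, and 46.0 to 49.3% of all probes were detected on an array. Fold changes are on the log2 scale with values under 1 set to 1, and a probe was called at a limma adjusted p under 0.05. All 7 macrophage markers examined were detected on both arrays of every group, with a summed intensity of 22014 to 31049 on the 8 arrays. Most of this sum was Lyz2, at 14466 to 22579, so it says little of the other markers. Between the M1 groups 4 of the 7 were called lower in iNOSKO (Csf1r, Itgam, Cd68 and Fcgr1) and 2 higher (Emr1 and Mertk). Over all probes 48.2% were called there, 22.9% higher and 25.3% lower. Nos2 was not detected in WT CON, at 1.06 and 1, or in iNOSKO CON, at 1.97 and 3.66, and lay at 177 and 132 in WT M1 and at 180 and 204 in iNOSKO M1. The Nos2 probe thus did not separate the genotypes after stimulation (log2 difference 0.32 ± 0.32, SE, limma adjusted p = 0.445), and every direction below rests on the labels. Where the probe lies relative to the targeted part of the gene is not given in the sources used here.

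Upstream sequences were taken from RefSeq (GRCm38.p6) for 7 of the 9 genes, and Alox5ap and Alox15 had no entry. The 250 bases before the transcription start of Ptgs2, which was induced, and of Ptgs1 and Tbxas1, which both fell in stimulated iNOSKO cells, are shown 5′ to 3′ with motif matches in capitals. They lie at chr1:150099781-150100030 (Ptgs2), chr2:36230176-36230425 (Ptgs1) and chr6:38918736-38918985 (Tbxas1), all on the plus strand.
Ptgs2 promoter: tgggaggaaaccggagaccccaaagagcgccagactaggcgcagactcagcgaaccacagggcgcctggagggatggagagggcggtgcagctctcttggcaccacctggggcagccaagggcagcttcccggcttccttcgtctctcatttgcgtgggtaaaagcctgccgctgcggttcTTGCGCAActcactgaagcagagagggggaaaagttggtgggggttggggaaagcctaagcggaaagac
Ptgs1 promoter: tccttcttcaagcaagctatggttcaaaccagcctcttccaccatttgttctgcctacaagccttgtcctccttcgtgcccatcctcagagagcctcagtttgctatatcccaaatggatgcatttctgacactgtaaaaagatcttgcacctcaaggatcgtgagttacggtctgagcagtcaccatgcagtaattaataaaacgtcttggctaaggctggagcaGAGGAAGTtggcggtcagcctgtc
Tbxas1 promoter: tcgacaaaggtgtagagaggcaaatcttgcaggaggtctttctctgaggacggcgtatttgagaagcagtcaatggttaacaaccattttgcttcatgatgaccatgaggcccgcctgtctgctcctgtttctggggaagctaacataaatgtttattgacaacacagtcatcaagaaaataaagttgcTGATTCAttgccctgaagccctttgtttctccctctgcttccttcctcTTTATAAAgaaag

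Both strands of the 7 promoters were searched for 9 motifs. The capitals mark the C/EBP palindrome TTGCGCAA at -69 in Ptgs2, which 0.164% of 32851 promoters of this length hold, and the PU.1 motif GAGGAAGT at -24 in Ptgs1, held by 2.44%. In Tbxas1 they mark the AP-1 motif TGANTCA at -61 (6.75% of promoters) and a pair of overlapping TATAAA matches on opposite strands at -13 and -11. Any TATAAA match, single or paired, is held by 12.4% of promoters. The remaining match was a STAT motif TTCNNNGAA at -145 in Pla2g7 (7.02%). No match to the NF-kB motif (0.356%), the interferon response core (2.98%), TGACGTCA (cyclic AMP response, 1.55%) or CACGTG (E box, 6.02%) lay in these windows, and Ptges, Alox5 and Ltc4s held none of the 9. These matches describe letters only.

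Several genes were read by more than 1 probe, and each probe is named below by the base of its transcript at which it starts. Probes of Ptgs1 and Tbxas1 whose changes are described below read as follows, 5′ to 3′.
Ptgs1, base 1358: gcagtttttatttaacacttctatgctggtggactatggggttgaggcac
Ptgs1, base 1507: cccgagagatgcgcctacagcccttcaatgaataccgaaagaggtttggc
Tbxas1, base 1447: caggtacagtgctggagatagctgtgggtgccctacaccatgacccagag

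Stimulation of WT cells called a share of these probes near that of all probes. Of the 13 probes tested, 3 rose (1 of Ptgs2, 1 of Ptgs1 and 1 of Tbxas1), 1 fell (Ltc4s) and 9 were not called, against 35.1% of all 13868 probes called, 20.8% higher and 14.3% lower. By gene, each taken at its brightest probe, 1 of 9 rose, 1 fell and 7 were not called, with a median log2 change of 0.16 beside 0.09 over all probes.

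In iNOSKO cells the same stimulation moved nearly all of them. There 4 of the 13 probes rose (Ptgs2, both of Ptges, and Pla2g7), 8 fell (all 3 of Ptgs1, both of Tbxas1, Alox5, Alox5ap and Ltc4s) and only the Alox15 probe was not called, against 50.3% of all probes called, 25.2% higher and 25.1% lower. By gene, 3 of 9 rose and 5 fell, and the median log2 change was -1.01 beside 0.00 over all probes.

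The genotypes differed at fewer of the probes before stimulation than after it. Between unstimulated cells 3 of 13 probes were higher in iNOSKO (Alox5, Alox15 and, undetected in both groups, Ptgs2) and 1 was lower (Ltc4s), with 32.2% of all probes called, 16.7% higher and 15.4% lower. Between M1 cells 2 were higher in iNOSKO (Ptgs2 and Pla2g7), 8 were lower and 3 were not called, with 48.2% of all probes called, 22.9% higher and 25.3% lower. The M1 response itself differed between genotypes at 9 of 13 probes, more positive in iNOSKO at 2 and more negative at 7, where 42% of all probes were called, 19.4% more positive and 22.6% more negative. The 4 comparisons share groups of arrays and are not independent of each other. In such RNA from bulk cultures, fewer cells of a type and less RNA per cell cannot be told apart.

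**Figure D1:**
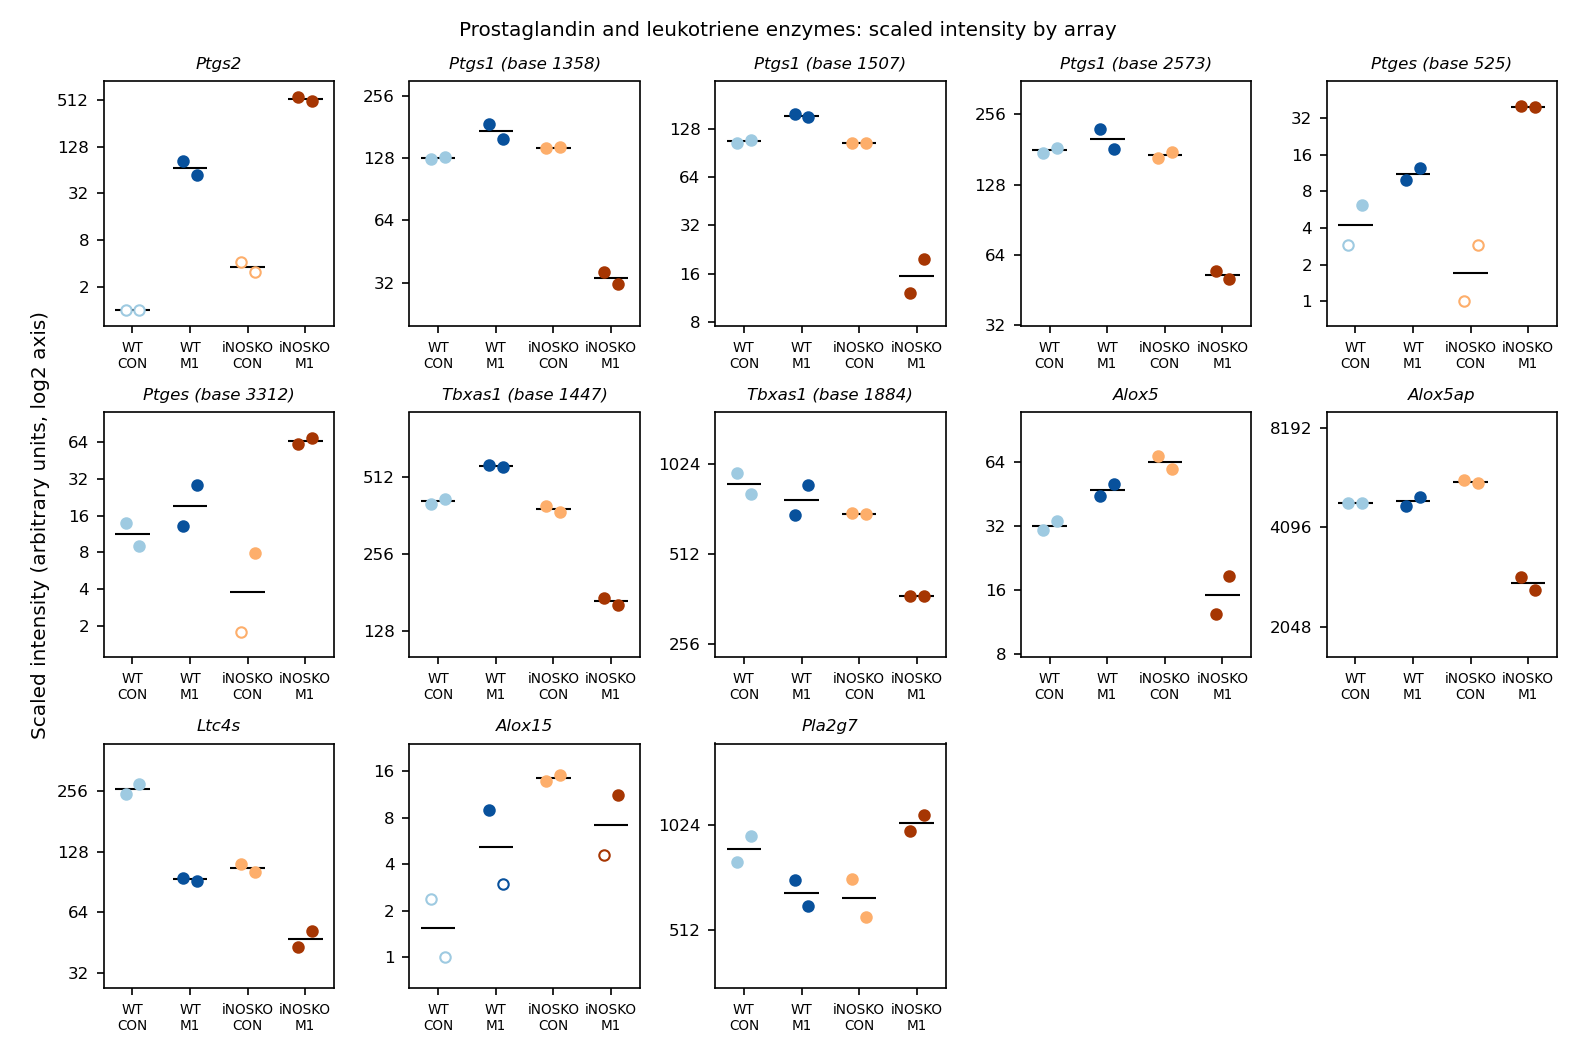
Scaled intensity (arbitrary units, log2 axis) of each tested probe on the 8 arrays, by group. Points are arrays, open where the probe was not detected, and lines are means of the log2 values. Ptgs2 rises to 493 to 553 in iNOSKO M1, where Ptgs1, Tbxas1, Alox5 and Alox5ap are at their lowest.

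Ptgs2, the inducible cyclooxygenase, was the most strongly induced enzyme of the group in both genotypes. The probe at base 3823 was not detected on either WT CON array, where it was at 1 and 1, or on either iNOSKO CON array, at 4.19 and 3.17. It reached 83.4 and 55.6 in WT M1 and 553 and 493 in iNOSKO M1. No stimulated array overlapped an unstimulated one, and both iNOSKO M1 arrays lay above both WT M1 arrays.

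Against the detection limit, Ptgs2 rose at least 12.1-fold in WT (limma adjusted p = 8.58e-05) and at least 104-fold in iNOSKO cells (3.4e-05). Between the M1 groups it was 7.67-fold higher in iNOSKO (log2 difference 2.94 ± 0.24, SE, adjusted p = 0.000563). Both unstimulated groups were below detection, and so no fold is given for that comparison. The difference between the responses is set by the floor there, at 1.07 ± 0.33 on the log2 scale without a call (adjusted p = 0.0506), and at 2.47 under neqc, 2.57 with an intercept and 2.94 with a floor of 16, all called. The other Ptgs2 probe, at base 2199, was not detected on any array.

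Ptgs1, the cyclooxygenase that most cells make constantly, went the opposite way in iNOSKO cells. At base 1358 its values were 128 and 129 in WT CON, 188 and 159 in WT M1, 143 and 145 in iNOSKO CON, and 36.1 and 31.5 in iNOSKO M1. At base 1507 they were 105 and 108, 157 and 150, 104 and 104, and 12.1 and 19.7 in the same order. The probe at base 2573 gave 175 and 183, 221 and 183, 166 and 176, and 54.4 and 50.7. All 3 probes had iNOSKO M1 far below the other 6 arrays, which lay close together.

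On stimulation of iNOSKO cells Ptgs1 fell 4.26-, 6.75- and 3.25-fold at the 3 probes (log2 changes -2.09 ± 0.12, -2.75 ± 0.23 and -1.70 ± 0.12, SE), with adjusted p of 0.000149, 0.000459 and 0.000271. Its level in iNOSKO M1 was 5.13-, 9.96- and 3.83-fold below that in WT M1 at the 3 probes. These calls held in every alternative run, as did those of the difference between the responses (-2.52, -3.28 and -1.87). In WT cells the response was 0.43 ± 0.12 (adjusted p = 0.0437), 0.53 ± 0.23 (0.136) and 0.16 ± 0.12 (0.342), so that only the probe at base 1358 was called. That call was lost, at adjusted p of 0.0724 to 0.159, without either WT CON array, the first WT M1 array or either iNOSKO CON array, and also under quantile normalization (0.101). The genotypes differed by 0.16, -0.03 and -0.07 before stimulation, none of them called.

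Ptges, the inducible synthase of prostaglandin E2 that acts after the cyclooxygenases, was dim in unstimulated cells. At base 525 it gave 2.90 and 6.16 in WT CON, 9.98 and 12.5 in WT M1, 1 and 2.93 in iNOSKO CON, and 40.0 and 39.2 in iNOSKO M1. It was not detected on the first WT CON array or on either iNOSKO CON array. At base 3312 the values were 14.0 and 9.10, 13.0 and 28.5, 1.79 and 7.97, and 60.6 and 69.0, with the first iNOSKO CON array not detected. On both probes the iNOSKO M1 arrays were above all 6 others.

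Ptges rose in iNOSKO cells at least 7.91-fold at base 525 (adjusted p = 0.0022) and 17.1-fold at base 3312 (log2 change 4.10 ± 0.78, SE, adjusted p = 0.00825). In WT cells the changes of 1.40 ± 0.59 and 0.77 ± 0.78 were not called, nor were the unstimulated genotype differences of -1.31 and -1.58. Between the M1 groups iNOSKO was 3.54- and 3.35-fold above WT without a call (adjusted p = 0.0525 and 0.121), a difference that 11 of 16 alternatives called at base 525 and 6 of 16 at base 3312, neqc among them (7.35e-06 and 0.000193). The difference between the responses was called at base 525 (3.13 ± 0.84, adjusted p = 0.0331) and not at base 3312 (3.32 ± 1.10, SE, adjusted p = 0.0607). Since neither iNOSKO CON array detected the probe at base 525, its size depends on the floor, at 1.32 under neqc and 1.31 with a floor of 16, and was 2.35 without the first and 3.85 without the second iNOSKO CON array. The call at base 525 was lost, at adjusted p of 0.0506 to 0.0931, without any 1 of the second WT CON, the first or second WT M1, the first iNOSKO CON and the first or second iNOSKO M1 array. Under neqc, which raises the floor of dim probes, the iNOSKO responses shrank to 1.56 and 1.92, still called. Without the first iNOSKO CON array they were 3.75 and 3.02, and without the second 5.25 and 5.16, also called.

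Tbxas1, thromboxane synthase, fell beside Ptgs1. Its probe at base 1447 gave 402 and 419 in WT CON, 571 and 560 in WT M1, 392 and 372 in iNOSKO CON, and 172 and 161 in iNOSKO M1. At base 1884 the values were 955 and 815, 691 and 875, 704 and 697, and 371 and 370. The iNOSKO M1 arrays were the lowest at both probes, and the WT groups overlapped only at base 1884.

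Stimulation lowered Tbxas1 in iNOSKO cells 2.30-fold at base 1447 (log2 change -1.20 ± 0.08, SE, adjusted p = 0.000266) and 1.89-fold at base 1884 (-0.92 ± 0.15, 0.00435). Against WT M1 the iNOSKO M1 level was 3.40-fold lower (adjusted p = 0.00019) and 2.10-fold lower (0.00293), and these calls held in every alternative. The unstimulated genotypes differed by -0.10 and -0.33, not called. The probes disagreed in WT cells, where base 1447 rose by 0.46 ± 0.08 (adjusted p = 0.0118) and base 1884 gave -0.18 ± 0.15 (0.383). The WT call was lost without the first WT CON array (0.0677) or the first WT M1 array (0.052). The responses differed by -1.66 ± 0.12 and -0.74 ± 0.21, and the second of these was called at 0.0375 but not without either WT CON array, the second WT M1 array or any 1 of the 4 iNOSKO arrays (0.0524 to 0.11).

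**Figure D2:**
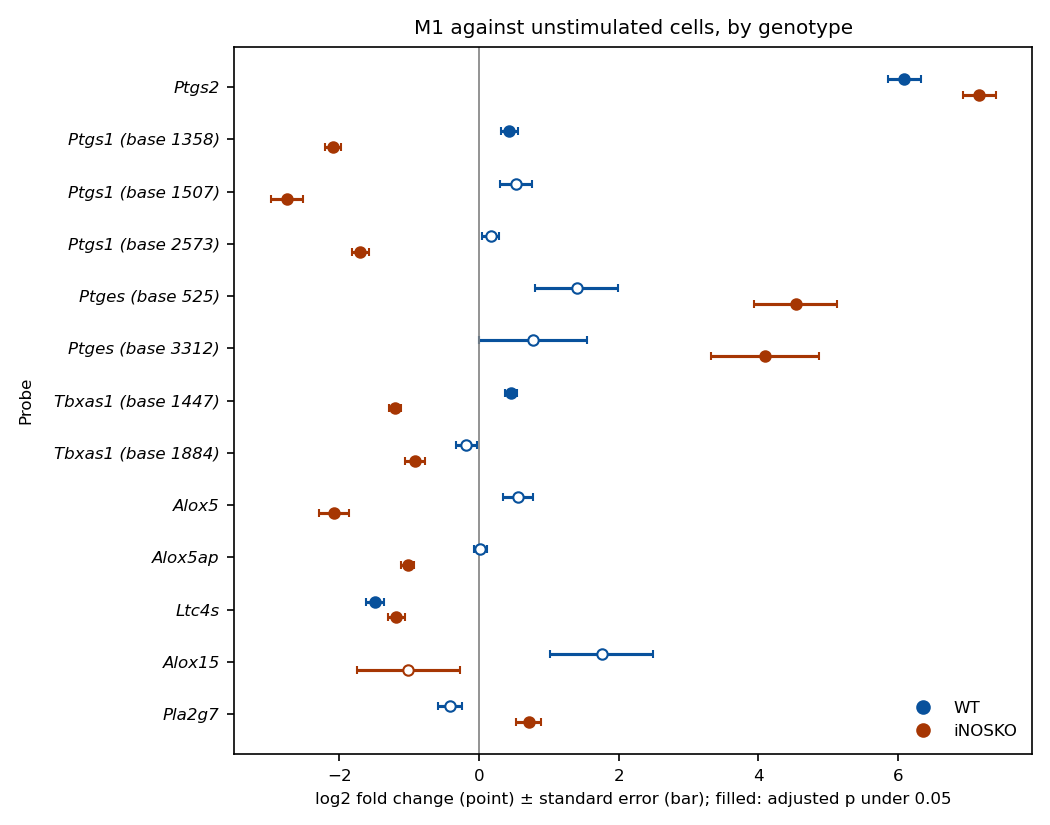
M1 response of each tested probe in WT and iNOSKO cells, as log2 fold change against unstimulated cells (points) with its standard error (bars), filled where called at a limma adjusted p under 0.05. Ptgs1 lies at -1.70 to -2.75 in iNOSKO and above 0 in WT, and the Ptgs2 changes are set against undetected groups.

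Alox5ap, whose product presents arachidonic acid to the lipoxygenase, was bright on every array. It gave 4841 and 4843 in WT CON, 4757 and 5069 in WT M1, 5697 and 5568 in iNOSKO CON, and 2896 and 2647 in iNOSKO M1. The iNOSKO M1 arrays were the lowest, the iNOSKO CON arrays the highest, and the WT groups overlapped between them. Alox5ap fell 2.03-fold on stimulation in iNOSKO cells (log2 change -1.02 ± 0.09, SE, adjusted p = 0.000509) and gave 0.02 ± 0.09 in WT (0.879). The responses differed by -1.04 ± 0.12 (adjusted p = 0.00258), and iNOSKO M1 was 1.77-fold below WT M1 (0.00129), while the unstimulated difference of 0.22 was not called (0.123) except by neqc (0.0328), quantile normalization (0.0493), a floor of 16 (0.042) and an intensity trend (0.0235). Under quantile normalization the fall in iNOSKO cells was larger, at -1.62.

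Alox5, the lipoxygenase that starts leukotriene synthesis, was likewise lowest in iNOSKO M1 and differed already before stimulation. Its values were 30.8 and 33.8 in WT CON, 44.6 and 50.4 in WT M1, 68.5 and 59.7 in iNOSKO CON, and 12.4 and 18.6 in iNOSKO M1. No group overlapped another. Alox5 fell 4.21-fold in iNOSKO cells (log2 change -2.07 ± 0.21, SE, adjusted p = 0.000941), gave 0.55 ± 0.21 in WT cells (0.104), and was 3.12-fold lower in iNOSKO M1 than in WT M1 (0.00255). The responses differed by -2.63 ± 0.30 (adjusted p = 0.00233).

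Unstimulated iNOSKO cells had 1.98-fold more Alox5 signal than unstimulated WT cells (log2 difference 0.99 ± 0.21, SE, adjusted p = 0.0216). Leaving out either WT CON or either iNOSKO CON array ended that call (adjusted p = 0.0625 to 0.0994), and neqc gave 0.65, still called. The Alox5 differences after stimulation were called in every alternative, at -0.92 between the M1 groups under neqc.

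Ltc4s, the synthase of leukotriene C4, was the only member that fell in both genotypes. It gave 249 and 277 in WT CON, 95.2 and 91.5 in WT M1, 112 and 102 in iNOSKO CON, and 42.8 and 51.7 in iNOSKO M1. Unstimulated WT cells were highest, iNOSKO M1 cells lowest, and the 4 groups did not overlap. The fall was 2.82-fold in WT (log2 change -1.49 ± 0.13, SE, adjusted p = 0.00105) and 2.27-fold in iNOSKO cells (-1.18 ± 0.13, 0.00109). Before stimulation iNOSKO cells were 2.46-fold below WT (adjusted p = 0.00173) and after it 1.98-fold below (0.00245), and all these calls held in every alternative. The responses differed by 0.31 ± 0.18, which was not called (adjusted p = 0.224) except under neqc, at 0.57 (adjusted p = 0.0114).

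Alox15, a lipoxygenase that also feeds lipoxin synthesis, was near the detection limit. The probe at base 2008 gave 2.38 and 1 in WT CON, 9.04 and 2.99 in WT M1, 13.9 and 15.2 in iNOSKO CON, and 4.61 and 11.3 in iNOSKO M1. It was not detected in WT CON and was detected on both arrays of iNOSKO CON alone. Unstimulated iNOSKO cells were at least 2.59-fold above unstimulated WT cells (adjusted p = 0.0254), a call lost without the second WT CON array (0.11) or either iNOSKO CON array (0.0926 and 0.0977). Neither response was called, at 1.75 ± 0.74 in WT and -1.01 ± 0.74 in iNOSKO (adjusted p = 0.127 and 0.307). The probe at base 1920 was not detected on any array.

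Pla2g7, the platelet-activating factor acetylhydrolase of plasma, moved up on stimulation in iNOSKO cells. Values were 800.2 and 950.4 in WT CON, 714 and 601 in WT M1, 716 and 560 in iNOSKO CON, and 983 and 1092 in iNOSKO M1. The iNOSKO M1 arrays were the highest, and the other 3 groups lay between 560 and 950.4. Pla2g7 rose 1.64-fold in iNOSKO cells (log2 change 0.71 ± 0.18, SE, adjusted p = 0.021) and gave -0.41 ± 0.18 in WT cells (0.129). The unstimulated genotypes differed by -0.46 ± 0.18, not called (0.106).

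Against WT M1, Pla2g7 was 1.58-fold higher in iNOSKO M1 (adjusted p = 0.0282), and the responses differed by 1.12 ± 0.25 (0.018). Under neqc the calls of the iNOSKO response (adjusted p = 0.105) and the M1 difference (0.0591) were lost. With only the compared arrays the iNOSKO response was not called (0.052). Without a detection filter (0.0584) or with a replicate block (0.0513) the M1 difference was not called. Quantile normalization ended all 3 calls (adjusted p = 0.218, 0.155 and 0.0816). Leaving out the second iNOSKO M1 array also ended them (0.091, 0.107 and 0.0528). The iNOSKO response was further lost without the second iNOSKO CON (0.0924) or the first iNOSKO M1 array (0.0537), the M1 difference without the second WT M1 (0.121) or the first iNOSKO M1 array (0.0633), and the difference between responses without the second WT CON (0.0502) or the second WT M1 array (0.0556).

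**Figure D3:**
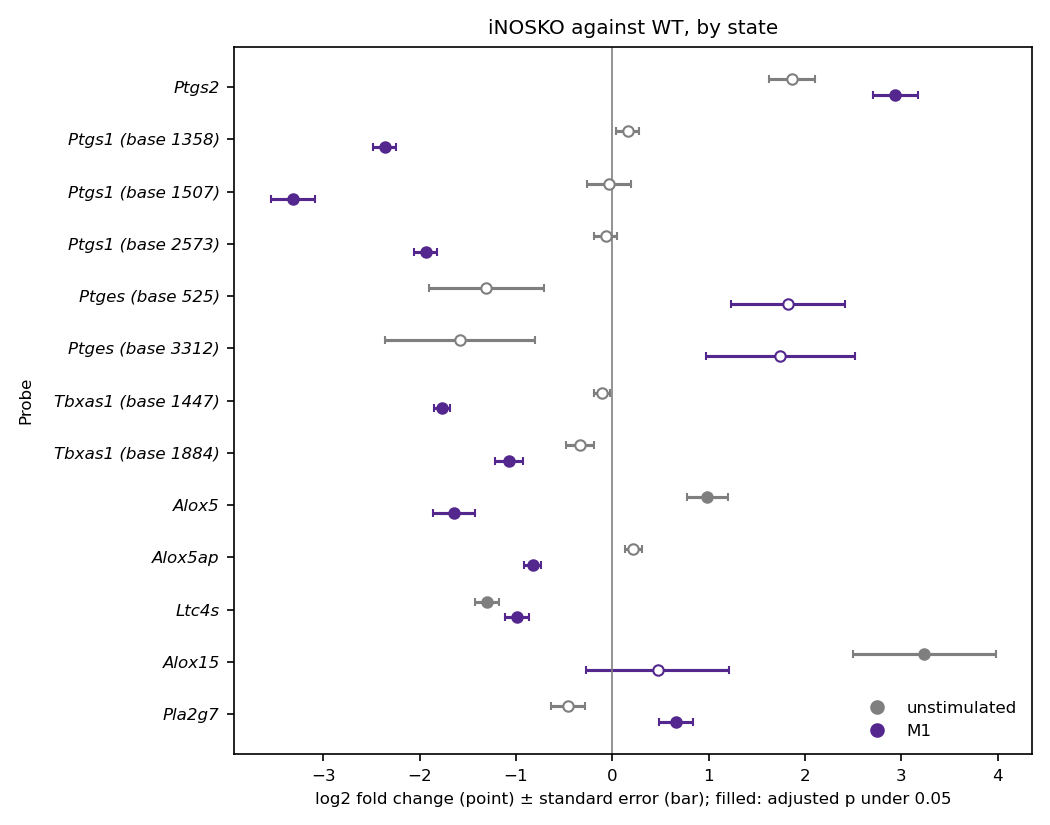
Difference between iNOSKO and WT cells for each tested probe before stimulation and in the M1 state, as log2 fold change (points) with its standard error (bars), filled where called at a limma adjusted p under 0.05. The unstimulated Ptgs2 point is open because neither group was detected. In M1 cells 8 probes lie between -0.83 and -3.32, while Ptgs2 is at 2.94.

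The rest of the eicosanoid pathway was examined through a list of 73 other genes, of which 70 were on the array and 41 were tested. In WT cells 8 of them rose, 9 fell and 24 were not called on stimulation, and in iNOSKO cells 8 rose, 16 fell and 17 were not called. Over all probes 35.1% and 50.3% were called in these comparisons. The genotypes differed at 9 genes that were higher and 11 that were lower in iNOSKO before stimulation, and at 7 higher and 17 lower after it, where 32.2% and 48.2% of all probes were called, the latter 22.9% higher and 25.3% lower. The median log2 difference of the 41 genes between the M1 groups was -0.63, beside -0.03 over all probes.

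Among the phospholipases A2, 7 of 19 listed genes were tested. Pla2g4f, a cytosolic phospholipase A2, gave 1.32 and 1 in WT CON, neither detected, 10.2 and 13.8 in WT M1, 15.3 and 22.8 in iNOSKO CON, and 157 and 150 in iNOSKO M1. All 4 comparisons were called, with the WT rise at least 2.11-fold and iNOSKO M1 above WT M1 by 3.69 ± 0.27 on the log2 scale (SE, adjusted p = 0.000427). Pla2g15, a lysosomal phospholipase A2, ran the other way, at 3211 and 3276, 1616 and 1686, 1410 and 1418, and 279 and 303 in the same order of groups. Of the 41 genes it had the lowest log2 difference between the M1 groups (-2.51 ± 0.08, adjusted p = 0.00011).

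Of 7 other prostanoid synthases tested, none rose and 2 fell in WT cells, while 1 rose and 2 fell in iNOSKO cells, no larger a share than the 35.1% and 50.3% of all probes. Ptgds2, the file's symbol for the hematopoietic prostaglandin D synthase, fell in WT cells from 107 and 129 to 37.0 and 39.4 (log2 change -1.62 ± 0.12, SE, adjusted p = 0.000618) and stood at 53.3 and 50.7 before and 48.2 and 46.8 after stimulation of iNOSKO cells. Ptgis, prostacyclin synthase, was lower in unstimulated iNOSKO cells, at 12.4 and 6.26 against 36.6 and 29.2 (-1.89 ± 0.34, adjusted p = 0.0119).

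Among the remaining lipoxygenases and glutathione transferases 4 of 8 were tested. Alox12, a platelet-type lipoxygenase, was at 28.4 and 26.8 in iNOSKO M1 and undetected in WT M1, at least 4.02-fold higher (adjusted p = 0.00483). Mgst1, a microsomal glutathione transferase, was at 2160 and 2170 in WT CON and at 709 and 789.6 in iNOSKO CON (-1.53 ± 0.09, adjusted p = 0.000364).

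Of the breakdown and export genes 11 of 15 were tested. Slco3a1, a prostaglandin transporter, rose from 25.9 and 26.0 to 277 and 266 in WT cells and from 142 and 139.7 to 1260 and 1483 in iNOSKO cells, by 3.39 ± 0.10 and 3.28 ± 0.10 on the log2 scale. A further transporter, Slco2a1, rose at least 2.25-fold in iNOSKO cells (adjusted p = 0.00871). Hpgd, which inactivates prostaglandins, fell in WT cells from 5.81 and 5.80 to below detection, too close to the limit for a fold (adjusted p = 0.000907), and at least 1.20-fold in iNOSKO cells. Cyp4f16, of a family that oxidizes leukotriene B4, fell in iNOSKO cells from 280 and 317 to 48.8 and 39.9 (-2.76 ± 0.18, adjusted p = 0.000195).

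The platelet-activating factor genes, 5 of 7 tested, gave 2 that rose and none that fell in WT cells, and 2 that rose and 1 that fell in iNOSKO cells, near the 35.1% and 50.3% of all probes. The receptors of the mediators were also read, with 3 of 9 prostanoid receptors tested. Ptgir, the prostacyclin receptor, fell from 418 and 408 to 217 and 202 in WT cells and from 186 and 179 to 64.3 and 64.5 in iNOSKO cells, a log2 change of -0.98 ± 0.08 and -1.50 ± 0.08 (adjusted p = 0.001 and 0.000128). Ptger2, a receptor of prostaglandin E2, fell from 175 and 153 to 32.6 and 42.4 in WT cells and from 50.7 and 52.1 to 26.0 and 23.8 in iNOSKO cells. Ptger3, a second receptor of prostaglandin E2, gave 6.51 and 11.4 in WT CON, 7.98 and 4.56 in WT M1, 37.3 and 27.7 in iNOSKO CON, and 1.87 and 1.08 in iNOSKO M1, and was not detected in iNOSKO M1 or on the second WT M1 array. It fell at least 4.31-fold in iNOSKO cells (adjusted p = 0.00085). Ptger2 and Ptgir were lower in iNOSKO M1 than in WT M1 (-0.58 ± 0.16 and -1.70 ± 0.08, adjusted p = 0.029 and 0.000194), and for Ptger3 both M1 groups lay too close to the detection limit to compare.

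Of 7 leukotriene or lipoxin receptors 4 were tested, of which 3 rose in WT cells, and in iNOSKO cells 1 rose and 2 fell. Over all probes 35.1% were called in WT cells, 20.8% higher, and 50.3% in iNOSKO cells, 25.2% higher and 25.1% lower. Ltb4r1, the high-affinity receptor of leukotriene B4, rose from 76.8 and 85.8 to 391 and 407 in WT cells and fell from 374 and 374 to 172 and 171 in iNOSKO cells. Cysltr1, a receptor of the cysteinyl leukotrienes, rose from 85.4 and 88.3 to 186 and 183 in WT cells and fell from 164 and 200.0 to 41.4 and 42.3 in iNOSKO cells. The responses differed by -3.42 ± 0.13 for Ltb4r1 and by -3.20 ± 0.16 for Cysltr1 on the log2 scale (SE, adjusted p = 0.000147 and 0.000302). Fpr2, which binds lipoxin and formyl peptides, rose in both, from 991 and 1059 to 4120 and 4562 in WT and from 2322 and 2298 to 11270 and 11354 in iNOSKO cells.

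**Figure D4:**
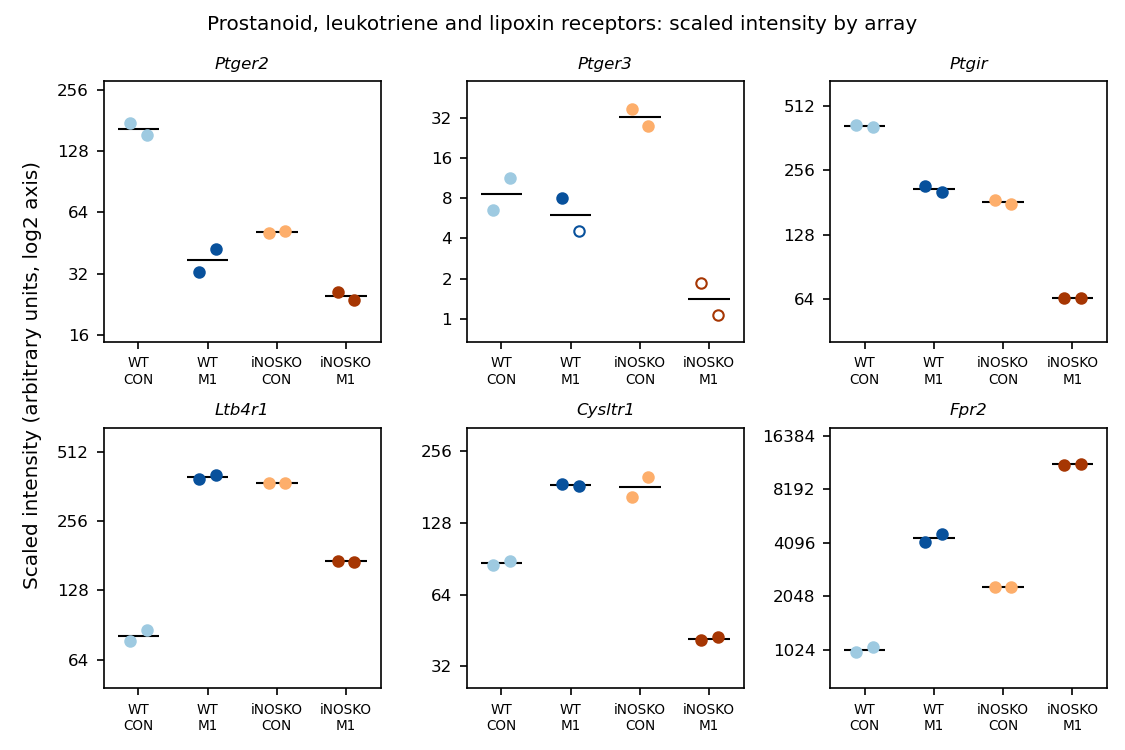
Scaled intensity (arbitrary units, log2 axis) of 6 receptors of prostanoids, leukotrienes and lipoxin on the 8 arrays, by group, with lines at the mean of the log2 values and open points where a probe was not detected. Ltb4r1 goes from 76.8 and 85.8 up to 391 and 407 in WT cells and from 374 down to 172 and 171 in iNOSKO cells, and Fpr2 rises in both.

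Markers of other cells that the cultures could hold changed between the same groups, and their part in the results above was not tested. The summed intensity of 7 dendritic cell markers was 756 to 767 in WT CON, 11642 to 12121 in WT M1, 10167 to 11162 in iNOSKO CON and 21635 to 22092 in iNOSKO M1, with Flt3 not detected in any group. Most of this sum was Ccl17, at 18992 and 19646 in iNOSKO M1. Stimulation of iNOSKO cells raised 4 of 6 tested markers (Ccl17, Ccr7, Ccl22 and Zbtb46) and lowered 1, where 50.3% of all probes were called. Ccr7 went from 140 and 163 to 1967 and 1809. The lowered marker, Cd209a, went from 36.1 and 42.5 to below detection, and Itgax gave -0.44, not called. The 8 granulocyte markers summed to 1128 to 1149, 1400 to 1506, 1682 to 1748 and 3866 to 3991 in the same order, with Mpo not detected in any group. Most of this sum was S100a8, at 2839 and 2945 in iNOSKO M1. Of 7 tested, 4 rose and 1 fell in WT cells, where 35.1% of all probes were called. In iNOSKO cells 5 rose and none fell, with 50.3% of all probes called. The marker that fell, Mmp8, went from 182 and 187 to 60.9 and 50.5 in WT cells. Among 6 mast cell and basophil markers, which summed to 15.3 to 18.7, 392 to 417, 277 and 1883 to 1965, Mcpt8, Mcpt6 and Ms4a2 were not detected in any group. In iNOSKO M1 most of the sum was Hdc, at 1840 and 1756. Cpa3 was not detected in WT CON and lay at 20.2 and 26.8 in WT M1, 96.5 and 84.8 in iNOSKO CON and 114 and 121 in iNOSKO M1. Eosinophil markers summed to between 4.08 and 24.7, with Epx not detected in any group. Only Prg2 was tested among them, and it rose at least 2.25-fold in WT cells (limma adjusted p = 0.000112) and was not called in iNOSKO cells.

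Genes of dividing cells followed an order that Alox5 and the receptors Ltb4r1 and Cysltr1 shared in part. The 5 markers summed to 504 to 551 in WT CON, 1721 to 1823 in WT M1, 2031 to 2032 in iNOSKO CON and 605 to 606 in iNOSKO M1. All 5 rose on stimulation in WT cells and all 5 fell in iNOSKO cells. Their part in the Alox5, Ltb4r1 and Cysltr1 results was not tested. Of the macrophage markers themselves, 3 of 7 rose and 1 fell in WT cells, and 2 rose and 3 fell in iNOSKO cells. Over all probes 35.1% were called in WT cells and 50.3% in iNOSKO cells.

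Over the 8 arrays Pearson r with the 3 Ptgs1 probes was 0.970 to 0.976 for the Tbxas1 probe at base 1447 and 0.904 to 0.927 for the one at base 1884. Alox5ap correlated with the Ptgs1 probes at 0.919 to 0.953, and Pla2g7 at -0.717 to -0.774. These values describe 8 arrays of 4 groups, which share their group means, and carry no test.

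Among 9687 probes detected on all arrays, the genes most like Ptgs1 at base 2573 were Stim1 (r = 0.999), Kcnn4 and Kcnab2 (both 0.997), and those most like it at base 1358 were Camk2g (0.997), Stim1 (0.996) and Ivns1abp (0.995). At base 1507 they were Metrnl, Oprs1 and Icmt, at 0.993 to 0.995. For Tbxas1 they included Tcf7l2 and Slc35c1 at base 1447 and were Bach1, Pja1 and Prkaca at base 1884. Alox5 was most like Kif23 (0.994), Haghl and Vps45, Alox5ap most like Fam108a (0.997), Limk1 and E2f2, and Ltc4s most like Mpv17 (0.998), Nans and D19Wsu162e. Pla2g7 had the loosest partners, Yipf6 (0.975), D5Wsu178e and Cript.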

How the data were processed

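The authors deposited 1 table with the bead-averaged intensity of each probe on each array, not normalized between arrays, and a detection p-value for each intensity. The series text names the MouseRef-8 v2.0 array, the protocol and methods the MouseWG-8 v2.0. The submitters' processing notes name GenomeStudio and limma 3.14.4, and the authors' methods background subtraction, rank-invariant normalization, 1 in place of negative values, log2 and limma. The deposited intensities scatter around 0 for undetected probes (25.2 to 27.2% are below 0), so none was subtracted again. Groups came from the titles, and 0 value columns lacked a sample.

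A factor per array (0.813 to 1.30) came from a robust fit without intercept (MASS 7.3.60.0.1) to the mean array, over probes of stable rank (ranks 0.5 to 0.9, tolerance 0.05). After a floor of 1 and log2, 13868 probes detected at 0.05 on at least 2 arrays entered a model of the 4 groups in limma 3.58.1 under R 4.3.3 (lmFit, eBayes). Adjusted p is limma's, by Benjamini-Hochberg over those probes. Where neither array of a group detected a probe, its fold is a bound: the brighter mean over the higher of the dim value and the lowest detected value per array. The steps were tested on simulated data. Arrays of a group differed by a median of 0.161 to 0.187 (log2), and 2 arrays a group limit the precision.

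All probes of the 10 genes are named. Pathway genes are named for the 3 largest called changes each way, if the higher group was detected on both arrays and the groups were apart, and receptors where called. Likeness gives the 3 highest r per probe, with an item that is not reported here left out. Members and lists were chosen with earlier results of these data known. Gene symbols are the file's. Its probe coordinates have no stated build, and 2 of 14 fell inside the gene in GRCm38.p6, so they are not given. Alternatives were neqc, quantile normalization, an intercept in the scaling, a floor of 16, 2 other detection filters, only the compared arrays, an intensity trend, a replicate block, a 2-fold minimum and leaving out each array.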

Additional observations from a re-analysis of the deposited data

Results flagged for a closer look

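The M1 response differed between the genotypes, by the limma test of the difference itself, at 9 of the 13 tested probes, where 42% of all probes were called. As the iNOSKO minus the WT response on the log2 scale, the values were -2.52, -3.28 and -1.87 at the Ptgs1 probes at bases 1358, 1507 and 2573, and -1.66 and -0.737 at the Tbxas1 probes at bases 1447 and 1884. They were -2.63 for Alox5 and -1.04 for Alox5ap. The difference was positive for Ptges at base 525, at 3.13, and for Pla2g7, at 1.12. The Ptges value is set against an undetected iNOSKO CON group and was 1.32 under neqc and 1.31 with a floor of 16. The calls of Ptgs1, Alox5, Alox5ap and Tbxas1 at base 1447 held in each of the 16 alternatives, and those of Ptges, Pla2g7 and Tbxas1 at base 1884 were lost in some.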

How the results depend on the processing

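Of 1072 recomputed values of single probes, 956 kept direction and call, 52 became called, 58 lost the call and 6 turned direction, none of the 6 called. The 6 were the Alox5ap response in WT under neqc (-0.11), quantile normalization (-0.11) and without the second WT M1 array (-0.021, in a range of -0.021 to 0.072 with each array left out), the Alox15 response in WT with an intercept in the scaling line (-0.078), and the Alox15 difference between M1 groups without the second WT M1 array (-0.33) or the second iNOSKO M1 array (-0.17), in a range of -0.33 to 1.27. The cause was not tested. A 2-fold minimum left 2102, 3995, 1956, 3438 and 3845 probes called for the WT response, the iNOSKO response, the unstimulated and M1 genotype differences and the difference between responses, where the report has 4869, 6975, 4459, 6687 and 5829, and 2 member probes for the WT response in place of 4. Leaving out 1 array gave 3164 to 4960 probes and 2 to 6 member probes for the WT response (2 without the first WT CON or the first WT M1 array; 3193, 3164 and 3238 probes without the first WT CON, second WT CON and second WT M1 array). It gave 2778 to 4529 probes and 2 to 4 member probes for the unstimulated difference (2 without the second WT CON or the first iNOSKO CON array; 2837, 2882, 2778 and 2823 probes without each of the 4 unstimulated arrays). No detection filter gave 2 member probes there and an intensity trend 7. Scaling moved the share of called probes that were higher from 59.3% to 44.4% (neqc), 47.4% (quantile) or 49.0% (intercept) for the WT response, and with an intercept from 47.5% to 58.4% for the M1 difference and from 46.1% to 59.7% for the difference between responses. The intercept moved the median of all probes to 0.20, -0.12, 0.24 and 0.33 in the iNOSKO response, the unstimulated and M1 differences and the difference between responses, and quantile normalization to -0.13 in the iNOSKO response. The deviations of arrays of the same replicate number correlate at -0.04 to 0.02. The labels do not say whether such arrays share a mouse or culture, and these correlations cannot settle it. With that number as a replicate block 4296, 6612, 3902, 6276 and 5326 probes were called, the calls of Ptgs1 at base 1358 in WT (0.0553), Pla2g7 between M1 groups (0.0513) and Tbxas1 at base 1884 in the difference (0.0673) were lost, and Ptges at base 525 between M1 groups (0.0298) and Ptgs2 in the difference (0.0315) were gained. Ptges, Alox15 and unstimulated Ptgs2 lie near background, where the floor and the background correction set the size of a change. With a floor of 16, unstimulated Ptgs2 and Alox15 gave no difference, and the Ptgs2 response in WT was 2.09.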
